A study of Mus musculus with 4 samples.

Results

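The 38 genes described here encode enzymes and regulators of fatty acid and triglyceride synthesis. They were found by symbol among the 53715 genes listed for each of 4 single-nucleus RNA libraries of mouse inguinal white fat, and every symbol matched 1 row. Inguinal white adipose tissue is the subcutaneous fat pad of the groin. It came from C57BL/6N mice aged 6 months, and 2 libraries carry the label wild type and 2 the label PTRF knockout, each titled for a separate mouse. PTRF is the older name of cavin-1, the caveolar coat protein encoded by Cavin1, and the series title names a distal enhancer of Ptrf. The sources used here state neither the allele behind the knockout nor the part of the gene it removes.

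Cells build fat from small precursors. Cytosolic acetyl-CoA is carboxylated to malonyl-CoA, fatty acid synthase assembles the chain with NADPH as the reductant, and elongases and desaturases then modify it. Acyl-CoA synthetases activate fatty acids, and a series of acyltransferases and a phosphatase place them on glycerol to form triglyceride, the store of the adipocyte. The transcription factors SREBP-1c and ChREBP raise expression of many of these genes after feeding, and white fat of rodents both makes fatty acids and stores those taken up from blood.

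Cavin1 goes against the labels. Over all nuclei it stood at 2.02 and 0.934 CPM under the wild type label and 47.7 and 57.1 under the knockout label. In adipocyte nuclei the levels were 3.54 and 1.24 CPM under the wild type label and 92.3 and 97.8 under the knockout label, from 20, 2, 267 and 892 UMIs (molecules counted by their barcode) in the same order. The names of the deposited files also carry the opposite genotype. Groups are kept as labelled, so "higher" below means higher in the libraries labelled knockout, which are the libraries rich in Cavin1.

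After filtering, 6664 to 15887 nuclei per library remained, with median UMIs of 844.5 to 1401. Nuclei were clustered with the 38 genes left out of the gene set used for clustering, and a class name means that a cluster's leading genes include markers of that cell type. When the 38 were kept, only 1 of them was in that gene set, and the adipocyte class held 9408 nuclei against 7738. Adipocytes numbered 2805, 814, 1691 and 2428 in the order wild type 1, wild type 2, knockout 1 and knockout 2, or 12.2% to 18.1% of nuclei, and 11 of their 12 defining markers led the cluster. Mean UMIs per adipocyte nucleus were 2105, 1919, 1556 and 4082, so the library labelled knockout 2 was deepest. Progenitors, vascular endothelial nuclei, macrophages, T or NK cells, B cells and 2 mammary epithelial classes were also compared. The largest unnamed cluster held 10469 nuclei of low depth (median 691 UMIs). Its share was uneven, at 8.32%, 34.7%, 34.9% and 16.9% of nuclei in the order above. Of all UMIs it held 4.21%, 22.5%, 24.6% and 6.28%, and sums over all nuclei include it. Levels are CPM, UMI counts scaled to library size, with TMM factors unless stated here. Levels of markers, of adipocyte sub-clusters and of the nuclei set against them, and the Lpin2 value, were scaled without TMM factors. Values with and without these factors are not on 1 scale. Levels compare 1 gene between groups, never 1 gene with another, because lengths were not corrected for. Differences are log2, labelled knockout minus labelled wild type, with n = 2 libraries per group, and adjusted p-values come from edgeR's quasi-likelihood test with Benjamini-Hochberg adjustment over all genes tested.

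Promoters were read for the 12 genes whose levels were higher in both libraries labelled knockout in adipocyte nuclei, to show the sequence before their start sites. RefSeq windows (GRCm38.p6) were matched for 31 of the 38 genes and for 9 of these 12, of which 7 hold a CCAAT box, while those of Gpat3 and Agpat2 hold none of the motifs marked here. The 250 bases before the start are printed 5′ to 3′ on the gene's strand for 4 of the 7, so the windows shown were chosen for their CCAAT boxes. Capitals mark CCAAT boxes (CCAAT or its reverse complement ATTGG), bound by the factor NF-Y, a known partner of SREBP, and in Mlxipl also the E-box CACGTG, the core of elements read by ChREBP, SREBP-1 and USF.
Pnpla3 (chr15:84167566-84167815, plus strand): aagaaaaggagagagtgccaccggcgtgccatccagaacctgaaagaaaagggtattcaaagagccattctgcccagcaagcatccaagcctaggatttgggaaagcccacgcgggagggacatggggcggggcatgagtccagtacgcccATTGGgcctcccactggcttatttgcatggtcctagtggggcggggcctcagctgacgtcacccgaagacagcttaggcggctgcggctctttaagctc
Fasn (chr11:120824548-120824797, minus strand): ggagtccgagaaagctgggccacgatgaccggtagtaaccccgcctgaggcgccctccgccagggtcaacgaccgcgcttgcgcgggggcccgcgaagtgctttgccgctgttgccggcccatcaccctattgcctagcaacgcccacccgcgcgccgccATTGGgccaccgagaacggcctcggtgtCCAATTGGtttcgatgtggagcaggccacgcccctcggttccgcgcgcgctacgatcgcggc
Fads3 (chr19:10041298-10041547, plus strand): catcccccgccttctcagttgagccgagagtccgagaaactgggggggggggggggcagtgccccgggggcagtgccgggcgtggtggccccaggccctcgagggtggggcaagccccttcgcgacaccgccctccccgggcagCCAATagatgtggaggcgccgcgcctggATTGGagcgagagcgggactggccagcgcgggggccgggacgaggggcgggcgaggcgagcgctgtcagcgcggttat
Mlxipl (chr5:135089640-135089889, plus strand): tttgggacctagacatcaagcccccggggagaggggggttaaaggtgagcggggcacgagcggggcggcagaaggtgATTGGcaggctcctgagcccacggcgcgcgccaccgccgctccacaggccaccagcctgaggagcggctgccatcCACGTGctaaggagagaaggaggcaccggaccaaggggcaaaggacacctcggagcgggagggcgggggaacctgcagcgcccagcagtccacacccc
The Pnpla3 and Mlxipl windows hold 1 CCAAT box each, that of Fads3 holds 2, and that of Fasn 3, of which 2 overlap each other. Some genes have several starts, so the 31 matched genes have 41 windows. On either strand CCAAT occurs in 33.8% of the 32851 RefSeq windows of this length and in 21 of the 41. The 9 matched higher genes have 13 windows, of which 8 hold it. Counted by gene instead, it occurs for 20 of the 31 matched members, with those 7 of 9 among them. The share by gene over all genes was not computed, so these counts by gene are not set against the 33.8%. The SREBP motif TCACNCCAC occurs in 1.05% of all windows and in 2 of the 41, those of an inner Acsl1 start and of an inner Mlxipl start. CACGTG occurs in 6.02% of all windows and in 5 of the 41. AGAACA, a single half-site of the glucocorticoid receptor element, occurs in 16.1% of all windows and in 6 of the 41, Lpin1 and Acaca among them. These matches describe letters in these windows and not sites.

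Adipocytes were the class with the highest mean level for 24 of the 37 genes with any UMI, and for 16 of these the lowest adipocyte library stood above the highest library of the second class. These levels are a description of 4 libraries without a test. The share of all genes highest in adipocytes was not computed, so 24 and 16 are not read as a trait of these genes. Acsl1, which activates long-chain fatty acids, averaged 3822 CPM in adipocytes (range 2229 to 6228) and 347 in vascular endothelial nuclei, the next class. Pnpla3, encoding a lipid-droplet acyl hydrolase and transacylase known from fatty liver, averaged 302 CPM in adipocytes and 29.7 in T or NK cells. Of the 12 measured genes of glycerolipid assembly, adipocytes were highest for 8. Adipocyte means were 164 CPM for Gpam and 434 for Gpat3, which acylate glycerol phosphate, and 904 for Lpin1, the phosphatidate phosphatase. They were 285 for Dgat1 and 283 for Dgat2, which add the last acyl chain. In each of these 5 the adipocyte libraries did not overlap those of the second class. Adipocyte nuclei gave 69.2% to 83.3% of all Pnpla3 UMIs in a library and 74.1% to 85.6% of those of Acsl1.

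The other 13 genes were highest elsewhere. Fads1 and Fads2, the delta-5 and delta-6 desaturases that make long polyunsaturated fatty acids, were highest in luminal epithelial nuclei in 4 of 4 libraries. Fads2 averaged 76.0 CPM there (range 42.4 to 105) against 18.6 in myoepithelial nuclei and 7.29 in adipocytes. Fads1 averaged 48.7 CPM (28.7 to 78.3) against 23.4 and 11.4. Neither range overlapped that of the second class. For the remaining 11 the top pair of classes overlapped. Elovl5 was highest in vascular nuclei and Acsl5 in B cells. Scd2, Agpat3, Agpat5 and Lclat1 were highest in T or NK cells, Insig2, Acsl3 and Acsl4 in luminal cells, Srebf2 in myoepithelial cells, and Agpat4 in progenitors. Agpat4 averaged 83.5 CPM in progenitors and 11.99 in adipocytes. Adipocytes were the lowest class for Acsl4, which prefers arachidonate, and for Agpat5. Scd1, the delta-9 desaturase, averaged 908 CPM in adipocytes (615 to 1520) and 647 in vascular nuclei (324 to 1170), which overlap. Scd1 and Scd2 are close paralogs, and the sources used here do not say how reads shared between them were counted. Lpin2 was listed at 0 UMIs in every library, where 3 counts of the total correspond to 0.0862 to 0.348 CPM. It overlaps Gm26561 on the same strand in the annotation, and how shared reads were counted is unknown, so this is no limit on its expression.

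**Figure D1:**
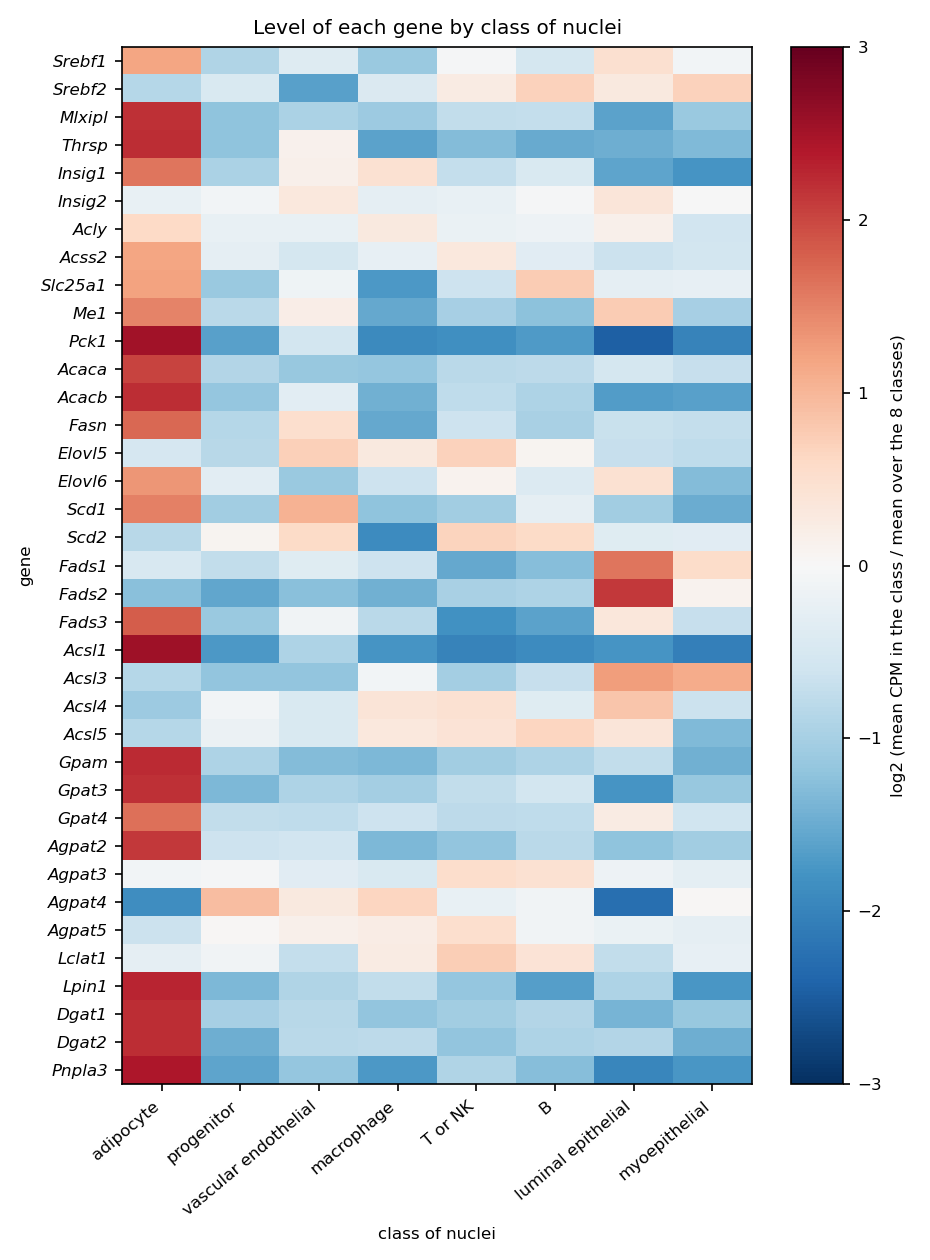
Each row is 1 gene and each column 1 of 8 classes of nuclei, with colour giving the log2 ratio of the class mean (CPM over 4 libraries) to the gene's mean over the 8 classes, so that rows are not compared in level. The adipocyte column is the highest for 24 of 37 genes, and the luminal column for Fads1 and Fads2; colours end at 3 on either side.

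Over all nuclei, 37 of the 38 genes were tested, and 26 lay above 0 and 11 below, with a median log2 difference of 0.25 against 0.02 for all genes. Only Pnpla3 rose, among 0.103% of all 28075 genes that passed in either direction and 0.0712% that rose. It stood at 34.3 and 41.2 CPM under the wild type label and 95.1 and 210 under the knockout label, without overlap (log2 2.01, SE 0.48, adjusted p = 0.0327). Both libraries labelled knockout exceeded both labelled wild type for 10 genes (7.27% of all genes did so), and the reverse held for 0 (7.6%). The 10 were Mlxipl, Thrsp, Fasn, Fads2, Fads3, Scd2, Gpat3, Agpat2, Dgat2 and Pnpla3. The summed level of the 12 adipocyte markers was 9019, 5443, 6179 and 15287 CPM in the order above, and its part in these differences was not tested. These sums combine the number of adipocyte nuclei, their UMIs per nucleus, the marker level within them and marker UMIs in other classes. The first 2 are given above, and adipocytes held 26.7%, 18.1%, 19.4% and 28.5% of all UMIs in the same order as the sums. The Pnpla3 call was lost on leaving out any 1 library (log2 1.33 without knockout 2 to 2.47 without knockout 1). It was also lost with each compared class set, in every library, to its mean share over the libraries (1.76, adjusted p = 0.0524, limma). The call was lost too with DESeq2 (2.06, adjusted p = 0.125) and, by edgeR, with no filter on low counts (2.02, adjusted p = 0.465). The stricter minimum of UMIs and genes per nucleus also lost it (1.90, adjusted p = 0.172, edgeR). The median of the members turned below 0 without wild type 2 (-0.088) or knockout 2 (-0.018), and came to 0.64 without wild type 1 and 0.41 without knockout 1.

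In adipocyte nuclei 17 of the 37 tested genes lay above 0 and 20 below (median -0.02, all genes 0.02). Members fell on both sides: 12 genes were higher in both libraries labelled knockout (32.4% of the 37, against 13.6% of all genes) and 7 lower in both (18.9%, against 12.3%). The higher ones were Srebf1, Mlxipl, Thrsp, Me1, Fasn, Scd2, Fads3, Gpat3, Agpat2, Dgat1, Dgat2 and Pnpla3. The lower ones were Srebf2, Insig2, Pck1, Acacb, Acsl5, Gpam and Lpin1. Only Pnpla3 passed the test, against 0.402% of the 17416 genes in either direction and 0.201% upward, and 11 members had an unadjusted p under 0.05 (4.04% of all genes did). Within the adipocyte class the 12 adipocyte markers summed to 28132, 23023, 21981 and 44216 CPM, highest in the library labelled knockout 2, and the part of this in the differences was not tested. Markers of luminal epithelium, another cell type of this pad, summed to 1290, 571, 1339 and 2301 CPM in the same nuclei, without TMM factors. Thrsp, Me1, Srebf1, Fasn and Dgat1 had that order of libraries in levels with TMM factors, so the scales differ. Of the 12 luminal markers tested, 9 lay above 0 (median 0.48), and none of the 13 listed was at 0 in every library. Esr1, the estrogen receptor, gave most of that sum (1040, 401, 1119 and 2076 CPM), while Krt8, Krt18, Krt19 and Epcam did not exceed 15.6 CPM in any library. Without Esr1 the luminal list summed to 250, 170, 220 and 224 CPM. That sum was highest in wild type 1, so it did not have the order of libraries of those genes. The part of the luminal markers in the differences was not tested either.

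Among the regulators, Thrsp (Spot 14, a thyroid hormone and carbohydrate responsive lipogenic protein) stood at 102 and 61.4 CPM under the wild type label and 124 and 324 under the knockout label (log2 1.45, SE 0.41, adjusted p = 0.159). The library labelled knockout 2 was far above the others, and without it the log2 difference was 0.58. Srebf1, which encodes SREBP-1, stood at 116 and 72.5 CPM under the wild type label and 154 and 211 under the knockout label (log2 0.94, SE 0.38, adjusted p = 0.767). Mlxipl, which encodes ChREBP, the glucose-responsive factor, stood at 175 and 287 CPM under the wild type label and 323 and 328 under the knockout label (log2 0.50, SE 0.41, adjusted p = 1.0). None of the 3 overlapped between groups and none passed. Srebf2, the regulator of cholesterol genes, spanned only 37.3 to 44.6 CPM. Insig1 and Insig2 encode the membrane proteins that hold SREBP in the endoplasmic reticulum, and their log2 differences were 0.39 and -0.44. Srebf1 overlaps Rai1 on the other strand in the annotation, and the sources used here do not say whether counting used strand.

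None of the 5 genes that supply acetyl-CoA, NADPH or glycerol phosphate passed the test. Me1, malic enzyme and a source of NADPH, had 245 and 176 CPM under the wild type label and 293 and 325 under the knockout label (log2 0.55, SE 0.40, adjusted p = 1.0). Pck1, whose product makes glycerol phosphate from lactate or amino acid carbon in fat, had 2518 and 1421 CPM under the wild type label and 1302 and 1402 under the knockout label (log2 -0.54, SE 0.51, adjusted p = 1.0). Wild type 1 alone was high for Pck1, and the other 3 libraries lay within 1302 to 1421 CPM. Acly, which makes cytosolic acetyl-CoA from citrate, spanned 40.9 to 55.2 CPM, Acss2, which makes it from acetate, 142 to 160, and Slc25a1, the citrate carrier, 10.7 to 12.4. In these 3 genes the groups overlapped.

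Fasn, which encodes fatty acid synthase, stood at 65.8 and 41.5 CPM under the wild type label and 115 and 144 under the knockout label (log2 1.25, SE 0.38, adjusted p = 0.206), with no overlap. Acaca encodes the cytosolic acetyl-CoA carboxylase that feeds Fasn, and Acacb the mitochondrial-membrane form whose malonyl-CoA restrains fatty acid entry into mitochondria. Acaca had 1790 and 975 CPM under the wild type label and 1772 and 2253 under the knockout label (log2 0.54, SE 0.51, adjusted p = 1.0), with overlap. Acacb had 1807 and 514 CPM under the wild type label and 390 and 398 under the knockout label (log2 -1.56, SE 0.50, adjusted p = 0.278), the largest difference of any member below 0. Its groups did not overlap, but wild type 1 stood far above the rest, and the difference was -0.38 without that library. Outside the Ucp1-led sub-cluster described below, wild type 2 had 399 CPM and knockout 1 had 405, without TMM factors. The separation of those 2 libraries for Acacb was therefore not seen in these other adipocyte nuclei on that scale. No member of this role passed.

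Elongases and desaturases showed no called difference. Elovl6, which extends palmitate, had 134 and 176 CPM under the wild type label and 194 and 114 under the knockout label (log2 -0.01, SE 0.38, adjusted p = 1.0), and Elovl5, for polyunsaturated chains, had 43.2 and 34.1 CPM under the wild type label and 29.4 and 38.3 under the knockout label (log2 -0.20, SE 0.39, adjusted p = 1.0). Both overlapped between groups. Scd1 was high only in wild type 1, with 1520 and 615 CPM under the wild type label and 709 and 789 under the knockout label (log2 -0.51, SE 0.48, adjusted p = 1.0). Scd2 was low throughout, from 6 to 42 UMIs in the libraries labelled wild type, with 7.43 and 3.72 CPM under the wild type label and 12.8 and 11.0 under the knockout label (log2 0.98, SE 0.55, adjusted p = 1.0). Fads3 had 38.9 and 67.0 CPM under the wild type label and 76.0 and 118 under the knockout label, without overlap and without a call. Fads1 and Fads2 did not exceed 16.6 CPM in any library.

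Of the acyl-CoA synthetases, Acsl1 had 3475 and 2229 CPM under the wild type label and 3356 and 6228 under the knockout label (log2 0.75, SE 0.57, adjusted p = 1.0). The library labelled knockout 2 was highest and knockout 1 lay between the libraries labelled wild type. Acsl5, which is shared between mitochondria and endoplasmic reticulum, had 30.3 and 31.0 CPM under the wild type label and 15.5 and 17.8 under the knockout label (log2 -0.87, SE 0.42, adjusted p = 1.0), lower in both libraries labelled knockout, and without overlap. Acsl3 and Acsl4 overlapped, with log2 differences of -0.14 and -0.37.

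Glycerolipid assembly held the only call in this class and also the second-largest difference below 0. Pnpla3 rose, with 93.4 and 176 CPM under the wild type label and 348 and 589 under the knockout label (log2 1.81, SE 0.43, adjusted p = 0.0354). Both libraries labelled knockout lay above both labelled wild type, and knockout 2 was the highest. Dgat2, the acyltransferase tied to newly made fatty acids, had 131 and 180 CPM under the wild type label and 381 and 441 under the knockout label (log2 1.41, SE 0.41, adjusted p = 0.174), and Dgat1 had 263 and 169 CPM under the wild type label and 304 and 403 under the knockout label. At the first acylation, Gpat3 had 253 and 321 CPM under the wild type label and 491 and 670 under the knockout label (log2 1.02, SE 0.43, adjusted p = 0.848). The mitochondrial form Gpam was lower in both libraries labelled knockout and not called, at 190 and 174 CPM under the wild type label and 161 and 131 under the knockout label, and Gpat4 overlapped. Agpat2, which adds the second chain and is mutated in a human lipodystrophy, had 46.7 and 66.3 CPM under the wild type label and 104 and 125 under the knockout label (log2 1.04, SE 0.37, adjusted p = 0.494); it overlaps Egfl7 in the annotation. Agpat3, Agpat4, Agpat5 and Lclat1 overlapped between groups. Lpin1, the step that yields diacylglycerol, had 1652 and 980 CPM under the wild type label and 393 and 589 under the knockout label (log2 -1.42, SE 0.48, adjusted p = 0.357), lower in both libraries labelled knockout but not called. Fasn, Dgat2, Gpat3, Agpat2 and Srebf1 were chosen for full values after their values were seen.

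**Figure D2:**
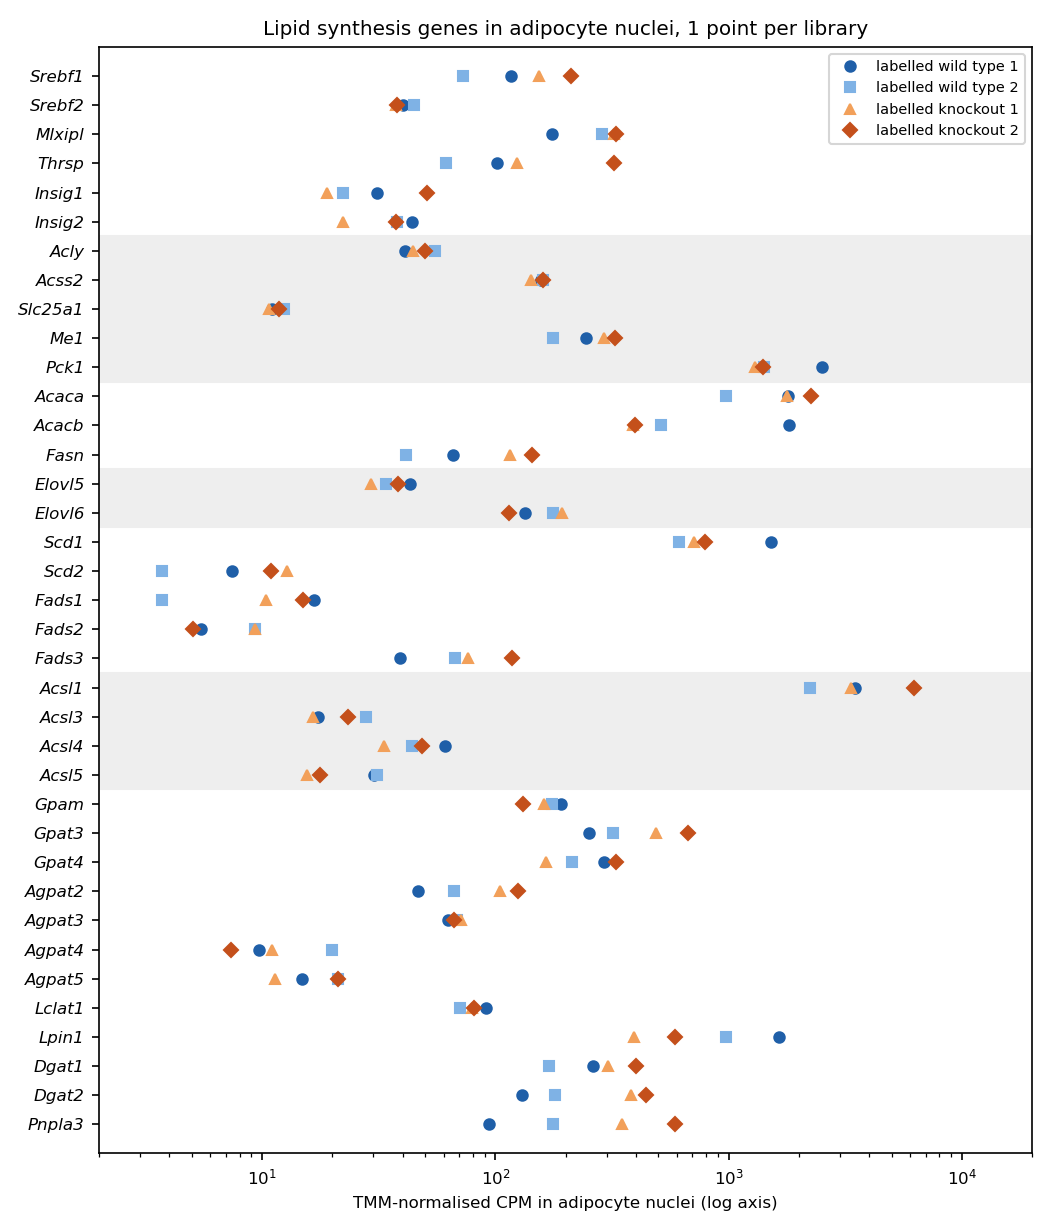
Each point is 1 library's level (CPM after TMM scaling, log axis) of 1 gene in adipocyte nuclei, with genes ordered by role and bands marking alternate roles. Pnpla3, Dgat2 and Fasn have both orange libraries (labelled knockout) right of both blue ones (labelled wild type), and Lpin1 and Acacb have them left, with wild type 1 far from the rest for Acacb.

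The Pnpla3 call in adipocytes held without knockout 1 (log2 2.17, adjusted p = 3.63e-04) and was lost without knockout 2 (1.38, adjusted p = 0.133), without wild type 1 (1.42) and without wild type 2 (2.31). By edgeR it was also lost with no filter on low counts (1.89, adjusted p = 0.112) and with the stricter nuclei (1.82, adjusted p = 0.0549). The replicate number as a block (1.82, adjusted p = 0.420) and a gate of at least 3 adipocyte marker UMIs (1.51, adjusted p = 0.237) lost it too. Only 31.1% of the 24198 nuclei in that gate were in the adipocyte class. The gate took 74.5% of the nuclei of knockout 2 and 27.5% to 41.1% of those of the other libraries. Without knockout 1, 4 members were called, against 0.84% of all genes: Pnpla3, Thrsp, Fasn and Dgat2 (edgeR, adjusted p = 5.71e-04 for Thrsp, 0.0454 for Fasn and 0.0409 for Dgat2), where the lone remaining library is assumed to vary like the other group. DESeq2 called Pnpla3 and Dgat2 (adjusted p = 0.0148 and 0.0442), against 0.487% of the 11294 genes it gave an adjusted p.

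Adipocyte nuclei also fell into sub-clusters that followed the libraries. One led by Irf4, Rgs2 and Fkbp5 held 71.7% of the adipocytes of wild type 1, 28.0% of wild type 2, 0.651% of knockout 1 and 1.36% of knockout 2. A sub-cluster led by Npr3, Glb1l2 and Lep held 62.6% of knockout 2 and at most 9.11% of any other library. Another of 256 nuclei had the immune genes Ptprc, Ms4a4b and Dock2 among its leading genes, with T or NK markers at 768 to 975 CPM and B markers at 571 to 1032 beside adipocyte markers at 15991 to 35529. It held 4.24%, 1.23%, 1.54% and 4.16% of the adipocytes in the order above, and without it and the Ucp1-led sub-cluster described below Pnpla3 had 1.84 (adjusted p = 0.0140). A low-depth sub-cluster was large in all 4 (20.4%, 55.8%, 86.3% and 31.8%), and the members were compared again within it; both of these alternatives were chosen after seeing the data. There 0 members passed by edgeR, and Pnpla3 had a log2 difference of 1.32 (adjusted p = 0.380), Dgat2 1.02, Thrsp 1.09, Fasn 0.91, Lpin1 -1.24 and Acacb -1.28. Scd2 changed sign to -0.42. In that sub-cluster Acacb stood at 1375 and 476 CPM under the wild type label and 404 and 317 under the knockout label, so wild type 1 was high there too. The order of the libraries for Fasn was 72.7 and 52.7 CPM against 127 and 99.0.

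A small sub-cluster led by Ucp1, the uncoupling protein of thermogenic fat, came from the libraries labelled wild type 2 (57 nuclei) and knockout 1 (40), with 2 nuclei in each of the other libraries. Within each of those 2 libraries, 3 members stood apart upward in both by 95% Poisson intervals, which cover counting error only. Elovl6 had 940 CPM (771 to 1135) in the Ucp1-led nuclei of wild type 2 against 122 (104 to 141) in its other adipocytes, and 1047 (804 to 1339) against 194 (177 to 211) in knockout 1. Acacb had 2185 (1923 to 2473) against 399 (368 to 433), and 1445 (1158 to 1783) against 405 (381 to 431). Both genes were several times higher in these nuclei, in a library of each labelled group, on 251 and 87 UMIs for Acacb. Acsl1 had 2786 against 2263 CPM and 5732 against 3643. Fads3 had 0 UMIs in both, where its other adipocytes had 74.6 and 85.6 CPM, and the upper limits of the intervals were 32.1 and 61.3. Lipogenic genes did not all follow: Fasn had 52.2 against 42.2 CPM and 99.7 against 128, with overlapping intervals. The sub-cluster was formed from other genes of the same nuclei, so these values describe it and test nothing.

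**Figure D3:**
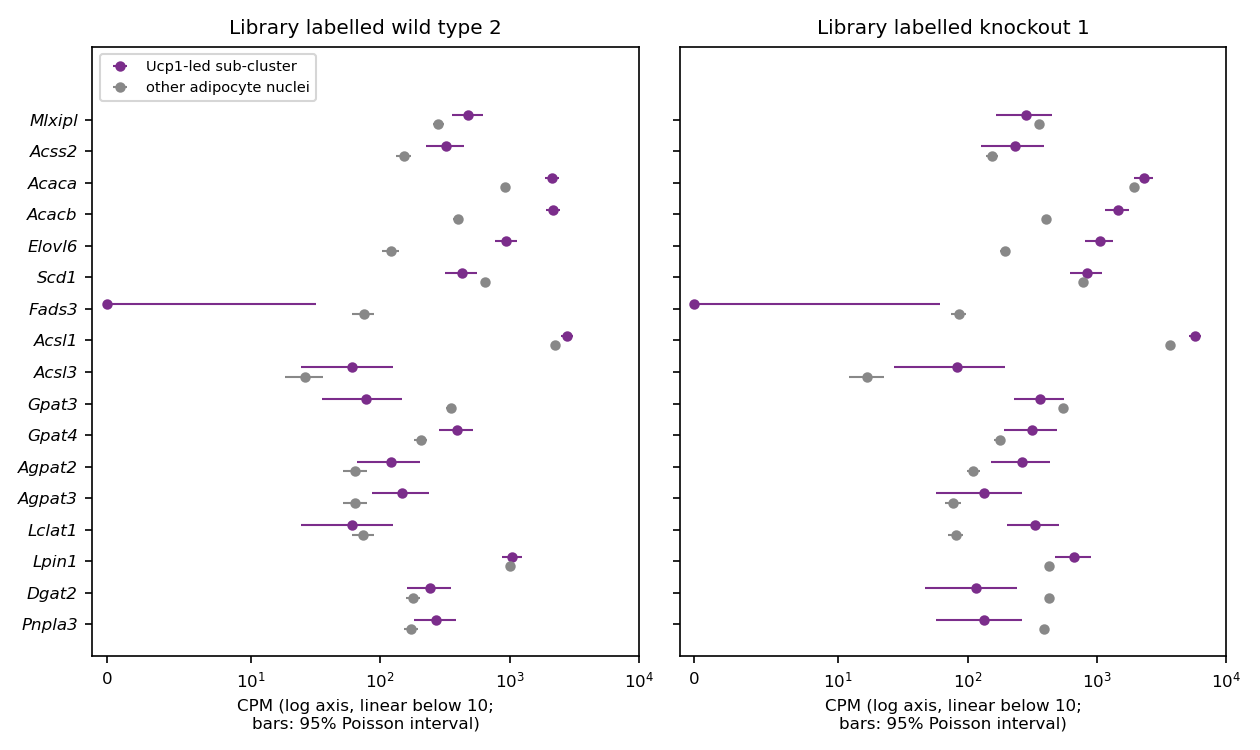
Points give the level (CPM without TMM factors, log axis that is linear below 10) in Ucp1-led nuclei (purple) and other adipocyte nuclei (grey). The libraries are those labelled wild type 2 and knockout 1, and bars are 95% Poisson intervals. Members shown have intervals that stand apart in at least 1 of these libraries. Elovl6, Acacb and Acsl1 are right of the grey points in both panels and Fads3 is at 0 in both.

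In progenitors, the stromal cells from which adipocytes form, 35 members were tested, 21 above 0 and 14 below (median 0.17). By edgeR 0 were called, against 0.0481% of 12475 genes, and 0 by DESeq2, and 4 had an unadjusted p under 0.05 (3.9% of all genes). Both libraries labelled knockout were higher for 8 members (14.2% of all genes) and lower for 5 (15.4%). Fasn stood at 9.20 and 4.80 CPM under the wild type label and 26.9 and 21.1 under the knockout label (log2 1.67, SE 0.54, adjusted p = 0.836) on 16 and 4 UMIs in the libraries labelled wild type, and Srebf2 at 35.7 and 26.4 CPM under the wild type label and 93.0 and 53.5 under the knockout label (log2 1.18, SE 0.38, adjusted p = 0.836). The groups did not overlap for either gene, and neither was picked by the fixed rule for full values. The Pnpla3 level was 10.4 and 13.2 CPM under the wild type label and 13.5 and 37.5 under the knockout label (log2 1.26, SE 0.55, adjusted p = 1.0), and only knockout 2 was high. Acsl1 stood at 195 and 46.8 CPM under the wild type label and 123 and 425 under the knockout label (log2 1.18, SE 0.66, adjusted p = 1.0), with overlap. The 12 adipocyte markers summed to 3102, 1417, 1826 and 4013 CPM in these progenitor nuclei, in an order like that of Acsl1, and their part in these values was not tested. The progenitor class joined a cluster led by Lama2 and Col1a1 with a cluster led by Pi16. The Lama2-led cluster held 4.71%, 5.78%, 4.82% and 8.91% of a library's UMIs (wild type 1 and 2, then knockout 1 and 2). The Pi16-led cluster held 3.17%, 4.35%, 0.532% and 3.18%. The part of this uneven mix in the differences was not tested. Leaving out wild type 1 gave 2 members called, Acsl1 and Scd1 (0.631% of all genes), and leaving out knockout 1 gave Acsl1 alone (0.434%).

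Whether the label difference itself differed between adipocytes and progenitors was tested as an interaction. Of 37 members 0 were called by edgeR (0.163% of 16521 genes were), and 5 had an unadjusted p under 0.05 (5.97% of all genes did). Scd1 had an adipocyte minus progenitor value of -1.11 (SE 0.34, adjusted p = 0.365), Acacb -1.07 (SE 0.34), Lpin1 -1.07 (SE 0.35) and Srebf2 -1.26 (SE 0.40), while Me1, the only one of the 5 above 0, had 0.84 (SE 0.34). Beyond these 5, Scd2 had the largest value above 0, 1.20 (SE 0.59), and Pnpla3 had 0.77 (SE 0.43). The genes named here were chosen after their values were seen. The part of the uneven mix of progenitor clusters in these values was not tested.

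**Figure D4:**
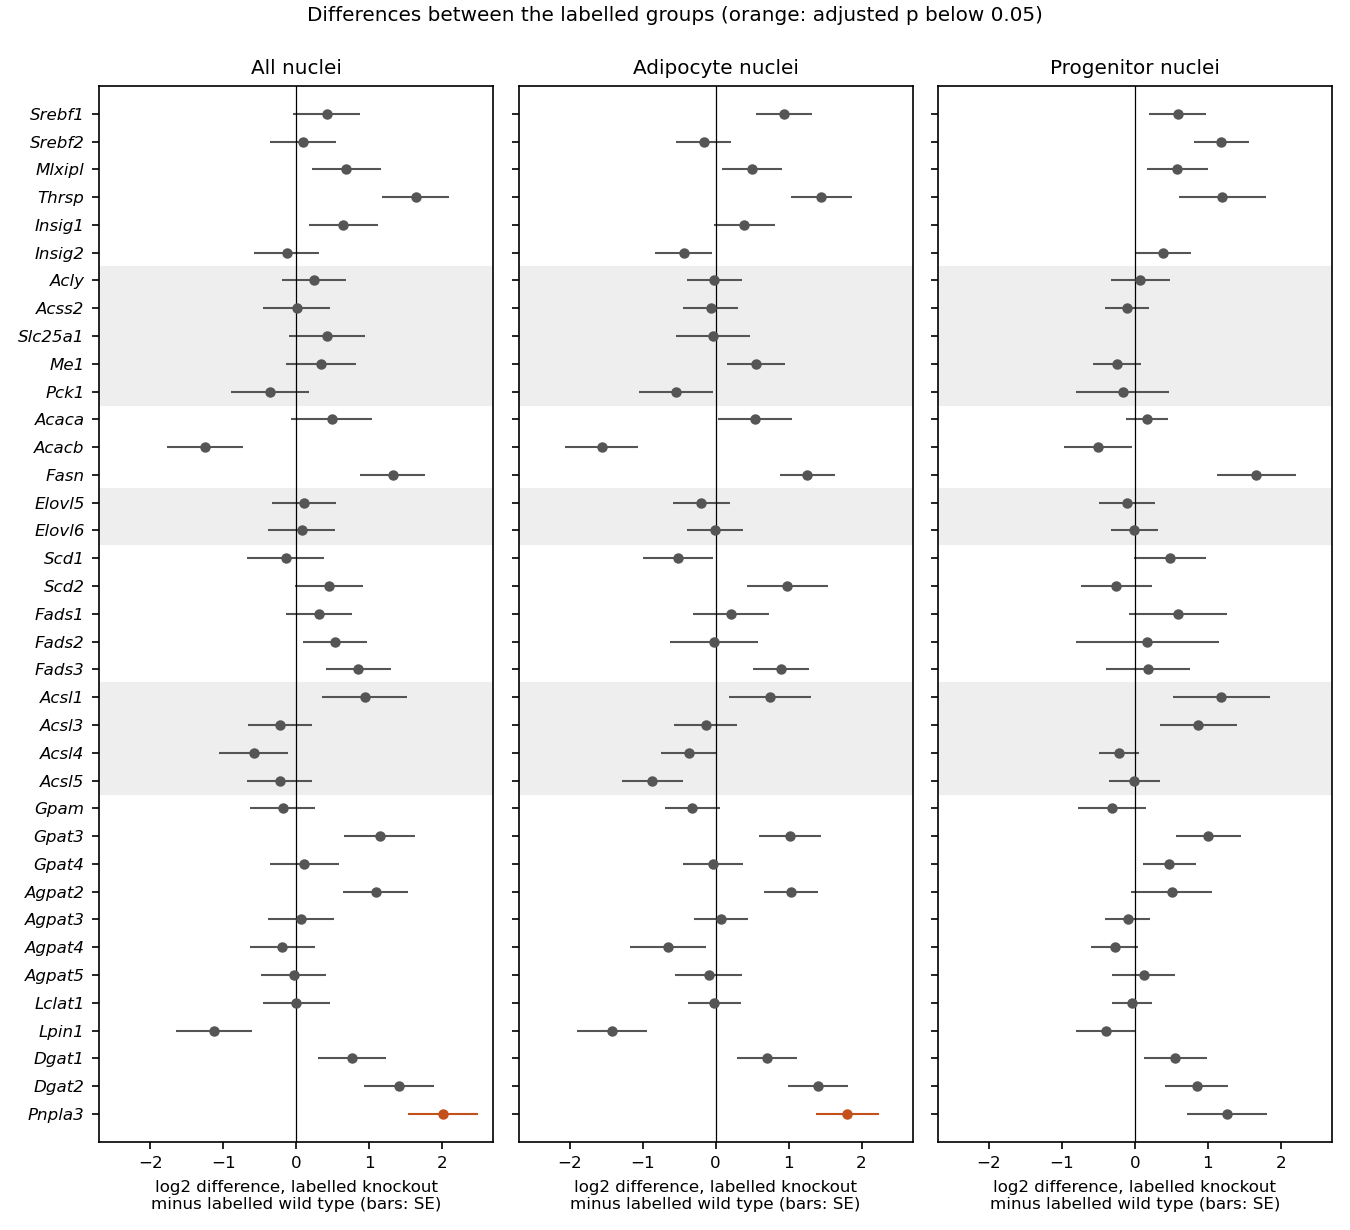
Points are log2 differences (labelled knockout minus labelled wild type) with SE bars for each gene, in all nuclei, adipocytes and progenitors, with 2 libraries per group. Only Pnpla3 is orange, meaning adjusted p under 0.05, in all nuclei and in adipocytes, and no member is orange in progenitors.

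Vascular endothelial nuclei held 1 more called member. Acsl1 stood at 204 and 151 CPM under the wild type label and 523 and 507 under the knockout label (log2 1.50, SE 0.33, adjusted p = 0.0231), against 1.54% of 5526 genes called, and 0.326% called higher. Of 21 members tested, 16 lay above 0 (median 0.55), and 13 were higher in both libraries labelled knockout (19.8% of all genes) and 4 lower in both (19.4%). In the same nuclei the adipocyte markers summed to 3394, 2843, 4171 and 6229 CPM, and the lymphatic markers to 4320, 2127, 315 and 920, so the class mixed vessel types in unequal shares. Without nuclei holding any lymphatic marker UMI, an alternative chosen after seeing the data, Acsl1 had a log2 difference of 1.16 (adjusted p = 0.315), and the call was also lost without wild type 1 (1.77) or wild type 2 (1.31).

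In the other classes 0 members passed by edgeR, the only tool run there. Of all genes 0.0113% were called in macrophages, 0.0441% in T or NK cells, 0.0434% in B cells, 0.0119% in luminal and 0.00932% in myoepithelial nuclei. At an unadjusted p under 0.05 stood 3 of 27 members tested in macrophages (1.81% of all genes), 5 of 36 in T or NK cells (1.34%) and 4 of 34 in B cells (1.43%). The same held for 3 of 37 in luminal epithelial nuclei (2.19%) and 5 of 35 in myoepithelial nuclei (1.67%). The luminal class joined a cluster led by Csn3 with a cluster led by Slc7a2, Prlr and Pgr. The Csn3-led cluster held 21.1%, 10.15%, 20.6% and 10.3% of a library's UMIs (wild type 1 and 2, then knockout 1 and 2). The Prlr-led cluster held 6.25%, 10.97%, 6.15% and 3.6%, so the mix was uneven. Its part in the luminal differences was not tested. Leaving out wild type 1 gave 4 called members in luminal nuclei, Scd1, Acsl3, Fads2 and Pck1, but also 2.8% of all genes there. It gave 3 in myoepithelial nuclei, Acsl1, Scd1 and Gpat3 (0.919%), and leaving out wild type 2 gave Acsl4 in luminal nuclei (0.301%). In T or NK cells and in B cells, which do not store triglyceride, the adipocyte markers summed to 1542, 1032, 1403 and 2995 CPM and to 1384, 843, 1169 and 2683 CPM, and their part in the levels of the members there was not tested.

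The wider pathway was read from 76 further genes in 5 lists. In adipocytes the suppliers of NADPH, citrate and glycerol phosphate had 13 of 16 above 0 (median 0.34, all genes 0.02) with 0 called and 2 at unadjusted p under 0.05. The other regulators had 10 of 13 above 0 (median 0.12) with 0 called, the other elongation and desaturation enzymes 6 of 11 with 0 called, and the other acyl transfer enzymes 7 of 14 with 0 called. At most 1 gene in each of these 3 lists had an unadjusted p under 0.05. Cholesterol synthesis genes had 9 of 15 above 0 with 1 called. Sc5d, the lathosterol oxidase, rose, with 28.8 and 26.7 CPM under the wild type label and 70.1 and 96.9 under the knockout label (log2 1.59, SE 0.38, adjusted p = 0.0387), and the call was lost without wild type 1 (1.66), wild type 2 (1.52) or knockout 2 (1.32). Hmgcs1, the entry to that route, had 26.4 and 26.7 CPM under the wild type label and 30.1 and 65.5 under the knockout label (log2 0.86, SE 0.40, adjusted p = 1.0). Hacd2, which dehydrates the elongation intermediate, had 1687 and 1355 CPM under the wild type label and 291 and 783 under the knockout label (log2 -1.50, SE 0.50, adjusted p = 0.341). Tkt, transketolase of the pentose phosphate route, had 87.6 and 67.6 CPM under the wild type label and 273 and 121 under the knockout label (log2 1.33, SE 0.40, adjusted p = 0.200), and Cebpa, an adipogenic factor, 19.5 and 14.3 CPM under the wild type label and 23.5 and 78.2 under the knockout label (log2 1.58, SE 0.44, adjusted p = 0.150), of which only knockout 2 was high. The remaining larger differences in each list were Aacs (-0.93), Mid1ip1 (0.99), Hacd4 (0.66), Acsbg1 (-0.81) and Agpat1 (0.80), none called. Over all nuclei and in progenitors 0 of these genes were called by edgeR, with at most 1 gene of a list at an unadjusted p under 0.05.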

How the data were processed

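The authors deposited unnormalised UMI counts for each gene in each barcode, with no barcode under 500 UMIs. Per the submitters' processing notes, GRCm38 (mm10) and Seurat 4.3.0 were used; the sources used here name no aligner. Nuclei came from a Singleron GEXSCOPE kit with 150 bp paired-end reads, per the labels' protocols. The 38 genes and the gene lists were chosen with earlier results of these data known.

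Barcodes with at least 300 genes and at most 10% mitochondrial UMIs were kept, 50067 in all. No doublet caller was run and doublets were not removed. Libraries share 0.776% to 0.964% of barcodes (of the smaller library). Nuclei were clustered on 2000 variable genes without the members, 30 components, 15 neighbours and Leiden resolution 1 (scanpy 1.11.5, igraph 0.11.9), giving 16 clusters, of which 4 stayed unnamed. A name needed at least 3 markers among the 100 leading genes. Counts were summed per library and class, filtered (filterByExpr), TMM-scaled and tested with edgeR 4.0.16 (quasi-likelihood, two-sided, Benjamini-Hochberg over all genes, threshold 0.05). The fits were also run on simulated counts with a dispersion of 0.05 for every gene. Those counts need not vary as these libraries do, so nothing about the members is concluded from them. Alternatives were DESeq2 1.42.0, no filter, stricter nuclei, a marker gate, a replicate block and leaving out each library. Another set each compared class, in every library, to its mean share over the libraries (limma 3.58.1).

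Members named in full were those called in any comparison and, in each role, that with the largest difference and that with the highest level in adipocytes; of the further lists, those called and the 2 largest differences in each. Positions follow GENCODE M21, which holds 53620 of the 53715 gene identifiers; 24 of the members overlap another annotated gene, and the sources used here do not say whether counting used strand. The libraries are separate mice by title. The p-values test the group difference against variation estimated from 2 libraries a group and moderated across genes.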

Additional observations from a re-analysis of the deposited data

How the results depend on the processing

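With 2 libraries a group, most calls depended on single libraries, and the cause was not tested. Over all nuclei the member called (Pnpla3) was lost on leaving out each library, with DESeq2 (0 called) and with no filter on low counts (0). It was also lost with nuclei of at least 1000 UMIs and 500 genes only (0) and with each class at its mean share in every library (0). Genes called, 29, came to 5 to 18 when a library was left out, 13 with DESeq2, 3 with the stricter nuclei and 10 at equal shares, and the members' median to -0.088 to 0.64. In adipocytes members called came to 0 to 4 when a library was left out, 2 with DESeq2 and 0 with no filter, with the stricter nuclei and with a gate of at least 3 marker UMIs. Genes called, 70, came to 15 to 167 when a library was left out, 43 with no filter and 7 with that gate, which took in 24198 nuclei. Of alternatives chosen after seeing the data, a gate of at least 15 marker UMIs gave 41 genes, and the low-depth sub-cluster alone gave 16 genes and 0 members. In progenitors leaving out a library gave 0 to 2 members, 13 to 76 genes (6 in the full set) and a median of -0.054 to 0.50, while DESeq2 gave 25 genes, no filter 37 and the stricter nuclei 16.

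Leaving out a library in vascular endothelial nuclei gave 0 to 2 members, 59 to 158 genes and a median of 0.41 to 1.04, and leaving out nuclei with lymphatic marker UMIs gave 0 members and 9 genes. Genes called came to 4 to 17 in macrophages, 1 to 5 in T or NK cells, 0 to 5 in B cells, 0 to 491 in luminal and 1 to 80 in myoepithelial nuclei. Members called came to 0 to 4 in luminal and 0 to 3 in myoepithelial nuclei. Medians came to 0.027 to 0.51 in T or NK cells, 0.025 to 0.36 in B cells, -0.033 to 0.68 in luminal and 0.14 to 0.60 in myoepithelial nuclei. For the interaction, genes called came to 22 to 114, and to 79 with no filter.

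Signs changed for members with small differences or 1 outlying library. Over all nuclei, leaving out a library took Acacb from -2.001 to 0.10 (above 0 without wild type 1), Acsl5 from -0.67 to 0.088 (above 0 without knockout 1), Elovl5 from -0.25 to 0.47 (below 0 without wild type 2, -0.23, or knockout 2), Me1 from -0.16 to 0.97 and Srebf1 from -0.19 to 1.34 (both below 0 without wild type 2). In adipocytes it took Elovl5 to 0.0025 and Scd1 from -1.04 to 0.29 (both above 0 without wild type 1), and Elovl6 from -0.41 to 0.32 (above 0 without wild type 2, 0.16, or knockout 2). Elovl6 came to 0.031 with no filter, 0.0014 with the lower marker gate, 0.22 with the higher and 0.20 without the immune-led and Ucp1-led sub-clusters, and Scd2 to -0.42 in the low-depth sub-cluster. In progenitors it took Acsl1 from -0.025 (without knockout 2) to 2.59, and Lpin1 from -0.91 to 0.50 and Acacb from -1.13 to 0.71 (both above 0 without wild type 1).

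The labels number the libraries 1 and 2 in each group, but nothing says that a number marks a shared day or litter. A fit with the replicate number as a block left 0 members called over all nuclei (4 genes) and 0 in adipocytes (17 genes), with Pnpla3 at 1.91 and 1.82. The block gave 3 genes in macrophages, 1 in T or NK cells, 0 in B cells and 0 in luminal nuclei. Depth limits the lowly counted members, among them Fads1, Fads2, Scd2 and Slc25a1.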
